A study of Rattus norvegicus with 2 samples.

Results

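The genes described are 10 members of the cellular defence against peroxides, namely Txn1, Txnrd1, Prdx1, Prdx2, Prdx5, Prdx6, Srxn1, Nqo1, Gclc and Gclm. They were chosen by symbol, as thioredoxin, peroxiredoxin and NRF2 target genes, and matched to the table through rat NCBI gene IDs. All 10 were found among the 16484 number-only gene IDs and the 113011 features of the table. RNA of rat urine was sequenced in 2 libraries, 1 titled WT and 1 titled UUO. UUO is unilateral ureteral obstruction, in which 1 ureter is closed by ligation and the kidney behind it becomes fibrotic. The rats were Sprague Dawley animals of 8 weeks (labelled postnatal day 56), and WT animals had the same operation without ligation. Urine was taken by catheter from the ureter after 2 weeks. The number of rats behind each library is not given, and there was 1 library per group. No difference below therefore has a replicate check or a p-value, and each one describes these 2 libraries only.

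Thioredoxin is a small protein with a reactive cysteine pair. It passes electrons from NADPH, by way of the selenoenzyme thioredoxin reductase, to peroxiredoxins and other proteins with oxidised cysteines. Peroxiredoxins use these electrons to reduce hydrogen peroxide and organic peroxides. Many genes of this system are induced by NRF2 (gene Nfe2l2), a transcription factor that KEAP1 marks for degradation in resting cells. NRF2 escapes when electrophiles or oxidants modify KEAP1, and then binds antioxidant response elements with a small MAF protein as partner. In the kidney this response is best known from the tubule, where the cells handle much oxygen and many toxic solutes.

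The core of the antioxidant response element is TGAC, any 3 bases, and GC. It was searched on both strands of RefSeq promoter windows of 300 bases, 250 before and 50 after each listed start (GRCr8 assembly). A window was listed for 9 of the 10 genes, with 2 starts for Txnrd1, and none was listed for Prdx6. The core was present for 4 of the 9 genes, in 4 of 10 windows. It was present in 12.1% of all 33469 windows and in 13.1% of 27457 genes. The 4 matches are shown because they mark which members carry the NRF2 core close to the start. Each stretch runs along the gene strand, and capitals mark the core, which here reads on the opposite strand in every case.
Prdx1: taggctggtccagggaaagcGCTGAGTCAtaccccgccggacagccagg
Gclm: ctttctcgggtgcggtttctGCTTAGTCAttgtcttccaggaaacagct
Txnrd1: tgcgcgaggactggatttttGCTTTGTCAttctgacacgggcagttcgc
Prdx5: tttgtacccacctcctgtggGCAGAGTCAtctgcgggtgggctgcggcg
The Prdx1 stretch is chr5:135383751-135383799 on the plus strand, and its core begins 135 bases before the start. The Gclm stretch is chr2:213031943-213031991 on the plus strand, with the core from 172 bases before the start. The Txnrd1 stretch is chr7:22755954-22756002 on the minus strand, with the core from 78 bases before 1 of its 2 starts. The Prdx5 stretch is chr1:213532000-213532048 on the minus strand, and its core spans the start itself. The Prdx1 core also holds the AP-1 motif TGANTCA, which was found in 7.33% of all windows, and the other 3 do not overlap one. A match describes letters in a window and not a bound site. The 4 genes with a match did not share a direction in urine, as the values below show.

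The values are FPKM (sequenced fragments divided by transcript length and by the depth of the library), which allow levels of different genes to be compared per length. A difference is that of log2(FPKM + 1), UUO minus WT, and the limit for counting it is 1 (2-fold). The conditions are called UrRf and Urc in the table and were read as UUO and WT from the study's published lists, so every direction rests on that reading. FPKM steps of assembled features gave a normalising total of 2124000 fragments for WT and 2440000 for UUO urine, by which 1 fragment on 1 kb stood for an FPKM of 0.471 and 0.410. Loci are given on rn5, the build named in the submitters' processing notes.

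All 10 genes had an FPKM of at least 1 in both libraries. By the 2-fold limit 3 were higher in UUO urine (Prdx1, Srxn1 and Nqo1) and 4 were lower (Prdx5, Prdx6, Gclm and Txn1), while Gclc, Txnrd1 and Prdx2 lay within it. Of 9853 genes that reached an FPKM of 1 in either library, 25.7% were higher and 36.5% lower. Of those 2534 higher genes, 75.1% were listed at 0 in WT urine, which is true of 0 of the 10 genes. Among the 7218 genes with an FPKM of at least 1 in both libraries, 7.01% were higher and 42.8% lower. With 30% higher and 40% lower, the 10 genes were thus near the first background in both directions. The second background, whose rule all 10 genes meet, has a similar share of lower genes and a smaller share of higher genes. The median difference of the 10 genes was -0.80, against -0.51 over the 9853 genes and -0.81 over the 7218.

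**Figure D1:**
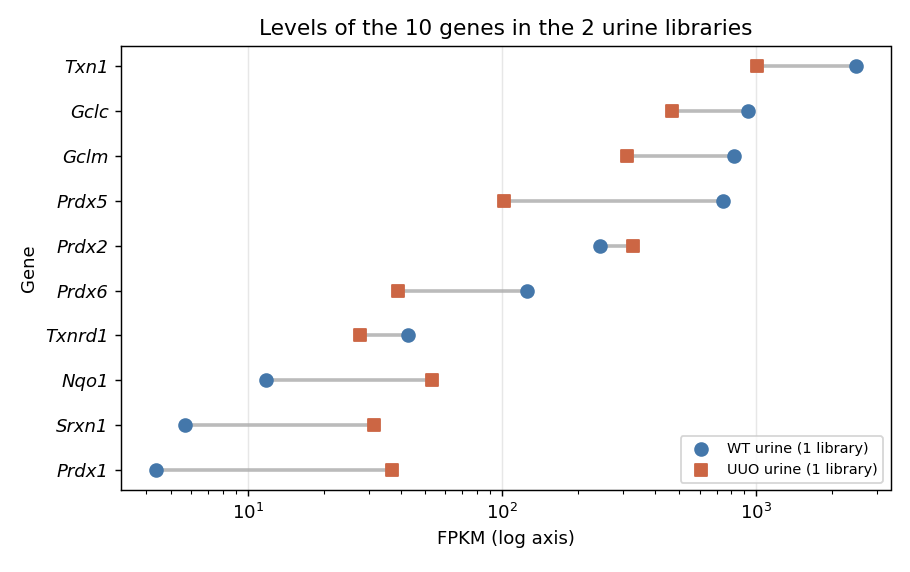
FPKM of each gene (log axis) in the WT library (circles) and the UUO library (squares), 1 library per group, in the order of the WT level. Prdx1, Srxn1 and Nqo1, the 3 lowest genes in WT urine, and Prdx2 lie to the right in UUO urine, and the other 6 genes lie to the left.

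The scale of the libraries matters for the lower genes. Rescaling to equal sums, to the same 75th percentile, to equal sums without haemoglobin or by the median ratio moved the median of all genes from -0.51 to 0.15, 0.27, 0.43 and 0.51. The share of higher genes among all changed genes moved from 41.3% to 62.7%, 66.5%, 70.8% and 73.2%. By the median ratio 4338 of the 10657 genes that then passed were higher and 1587 lower. Prdx1, Srxn1 and Nqo1 stayed above 1 and Prdx5 stayed below -1 under all 4 rescalings. Txn1, Gclm and Gclc remained negative but within the limit, Prdx6 left the limit under 3 of them, Prdx2 passed 1 under all 4, and Txnrd1 turned positive under 3. For this reason each gene is also given by its rank among the 16484 genes of its library, which a common factor does not alter.

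Txn1, cytosolic thioredoxin and the electron donor of the system, was the highest of the 10 genes in both libraries. Its FPKM was 2465 in the WT and 1006 in the UUO library, 2.45-fold lower in UUO urine (chromosome 5, 79201246 to 79209384). The difference was -1.29, or -0.78 relative to the median of all genes, and by the median ratio it was -0.36. Txn1 ranked 4 among all genes in the WT and 11 in the UUO library. It was therefore among the most abundant messages of either urine, and it alone held 45.8% of the summed FPKM of the 10 genes in the WT and 41.8% in the UUO library.

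Txnrd1, the cytosolic reductase that recharges thioredoxin, was far lower than its substrate in both libraries. Its FPKM was 42.7 in the WT and 27.7 in the UUO library (chromosome 7, 27065818 to 27143447), a difference of -0.61 that became 0.30 by the median ratio. The gene ranked 1690 in the WT and 1287 in the UUO library. The ratio of Txn1 to Txnrd1 was 57.7 in the WT and 36.4 in the UUO library. At the Txnrd1 locus 8 noncoding database entries summed to an FPKM of 0.624 in the WT and 10.1 in the UUO library, and with them added the difference was -0.19.

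The 4 peroxiredoxins lay on both sides. Prdx1, a cytosolic 2-cysteine peroxiredoxin, had an FPKM of 4.37 in the WT and 37.1 in the UUO library (chromosome 5, 139332531 to 139348216). It was 8.49-fold higher in UUO urine, a difference of 2.83, and its rank went from 6670 to 901. Prdx1 was the lowest of the 10 genes in WT urine, where its value stood for about 9.28 fragments per kb.

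Prdx2 is the other cytosolic 2-cysteine enzyme and is abundant in red cells. Its FPKM was 244 in the WT and 330 in the UUO library (chromosome 19, 37060408 to 37066382), 1.35-fold apart. The difference was 0.43 as deposited and between 1.06 and 1.36 after rescaling, so that its place above or below the limit depended on the scale. Its rank went from 187 to 57.

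Prdx5, an atypical 2-cysteine enzyme found in mitochondria, peroxisomes and cytosol, showed the opposite pattern to Prdx1. Its FPKM was 740 in the WT and 102 in the UUO library (chromosome 1, 229155297 to 229169665). It was 7.26-fold lower in UUO urine, a difference of -2.85, and its rank went from 35 to 231. Trmt112 and Esrra share its listed locus and were also lower in UUO urine, 3.95-fold and 3.98-fold. Summed over the 17 entries of the locus the difference was -2.48.

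Prdx6, the 1-cysteine enzyme that draws on glutathione and also has phospholipase activity, had an FPKM of 125 in the WT and 39.2 in the UUO library (chromosome 13, 83972029 to 83983158). It was 3.19-fold lower in UUO urine, a difference of -1.65, and its rank went from 488 to 836. By the median ratio the difference was -0.73.

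The makeup of the family differed between the libraries. In WT urine Prdx5 stood at 169 times the level of Prdx1, and in UUO urine at 2.75 times. The ratio of Prdx5 to Prdx2 was 3.03 in the WT and 0.309 in the UUO library, so the leading peroxiredoxin of the 4 was Prdx5 in WT and Prdx2 in UUO urine. Such ratios do not depend on how a library was scaled. They do depend on how reads of gene copies were placed. RefSeq lists 8 copies of Prdx1, 3 of Prdx6 and 1 of Txn1 by name, and their likeness in sequence was not measured. Of these 12, 10 are annotated as pseudogenes and 0 have an entry in the table. Whether reads were placed on or lost to such copies is unknown, and the FPKM of these 3 genes is uncertain for that reason.

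Srxn1, sulfiredoxin, repairs 2-cysteine peroxiredoxins whose active cysteine has been overoxidised, and it is a direct NRF2 target. Its FPKM was 5.67 in the WT and 31.3 in the UUO library (chromosome 3, 153956307 to 153963237). It was 5.53-fold higher in UUO urine, a difference of 2.28, and its rank went from 6235 to 1118. The WT value stood for about 12.04 fragments per kb. Relative to Txnrd1 its level was 0.133 in the WT and 1.13 in the UUO library.

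Nqo1, a quinone reductase and the best known NRF2 target, had an FPKM of 11.8 in the WT and 53.1 in the UUO library (chromosome 19, 49196640 to 49412315). It was 4.50-fold higher in UUO urine, a difference of 2.08, and its rank went from 4621 to 546. Nob1 and Nfat5, which share the listed locus, were lower in UUO urine, 4.23-fold and 2.38-fold. The sum over all 17 entries of the locus was thus nearly level, at 72.2 in the WT and 74.1 in the UUO library, a difference of 0.04. With only the noncoding entries added to Nqo1 the difference was 1.58, an alternative chosen after seeing the data.

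Gclc and Gclm encode the catalytic and modifier subunits of glutamate-cysteine ligase, the rate-limiting enzyme of glutathione synthesis. They were the 2 highest of the 10 genes after Txn1 in WT urine. The FPKM of Gclc was 929 in the WT and 468 in the UUO library (chromosome 8, 84627566 to 84666334). Its difference of -0.99 lay just inside the limit, and its rank was 20 in the WT and 34 in the UUO library. The FPKM of Gclm was 819 in the WT and 311 in the UUO library (chromosome 2, 243862185 to 243884096), a difference of -1.40, with a rank of 27 and 62. By the median ratio these differences were -0.05 and -0.46. The ratio of Gclc to Gclm was 1.13 in the WT and 1.51 in the UUO library, so the subunits stayed close to each other. Nqo1 stood at 0.0144 of the level of Gclm in the WT and at 0.171 in the UUO library, 11.9-fold more.

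**Figure D2:**
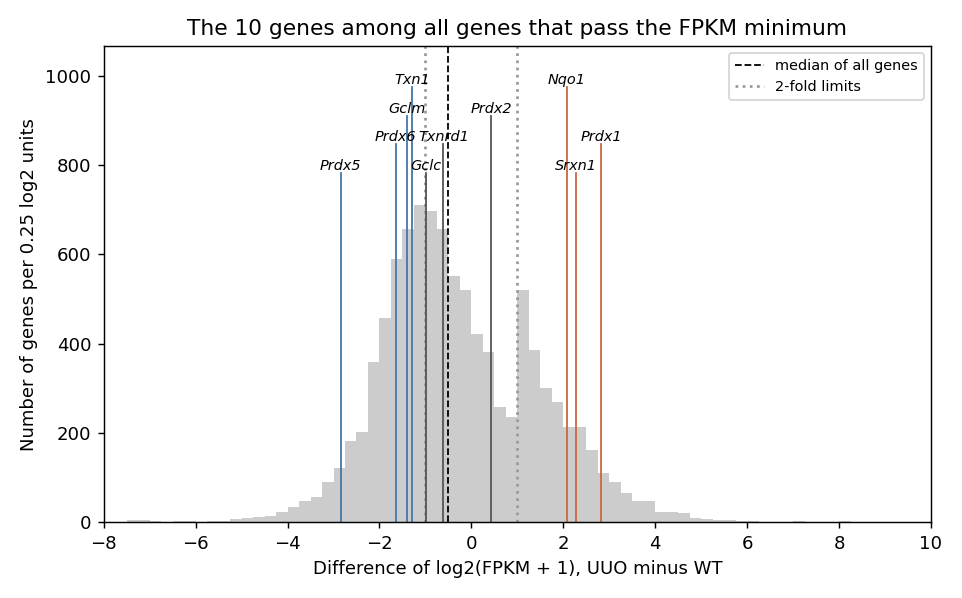
Number of genes (of 9853) in bins of the log2 difference, UUO minus WT (grey), with the 10 genes marked by lines. Prdx1, Srxn1 and Nqo1 lie above the upper dotted limit and Prdx5 lies farthest below, the dashed line is the median of all genes at -0.51, and the step just above 1 arises where genes listed at 0 in WT urine pass the FPKM minimum.

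The 3 higher genes were also the 3 lowest of the set in WT urine, and the background counts differ with level. Of 2219 genes with a WT FPKM from 4 to 12, 8.2% were higher and 32.6% lower by 2-fold. Of 712 genes with a UUO FPKM from 30 to 60, 14% were higher and 37.5% lower. On the other side, of 635 genes with a WT FPKM of at least 100, 73.9% were lower and 2.36% higher. Txn1, Gclm, Prdx5 and Prdx6 were in this range and lower in UUO urine, as were most of its genes. Gclc was also in it but within the limit, and Prdx2 was 1.35-fold higher. Genes picked by a high value in 1 library tend to be lower in the other, so this share is only a background. These ranges were chosen after the values were seen.

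**Figure D3:**
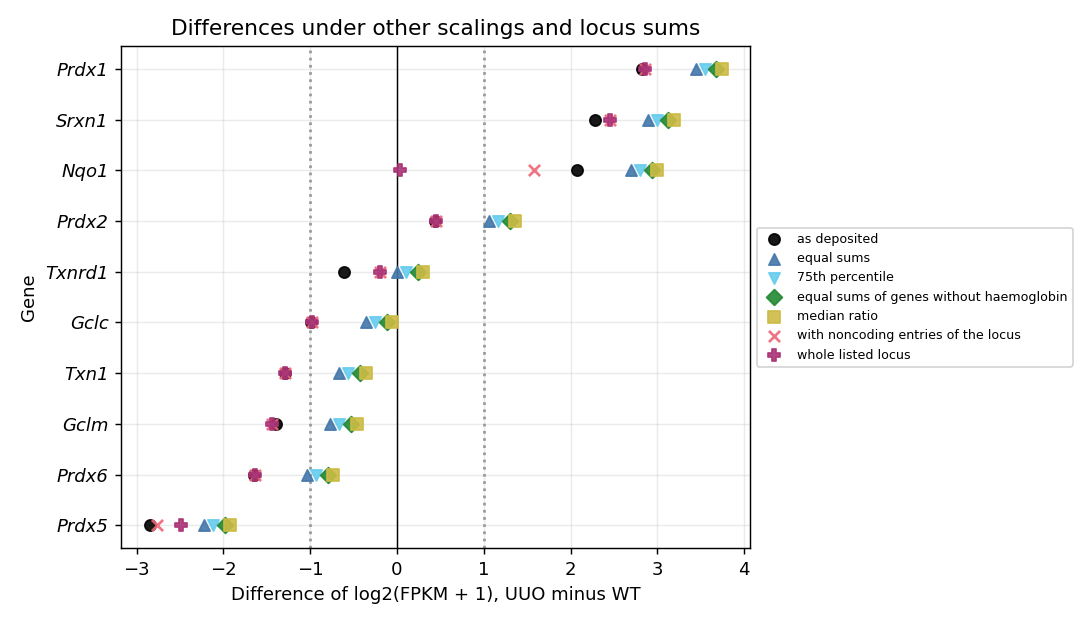
Log2 difference of each gene, UUO minus WT, as deposited (black) and under 4 rescalings and 2 ways of adding the other entries of the locus. The rescalings shift all genes to the right together, and Nqo1 is the 1 gene that the sum over the whole listed locus brings within the limit.

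Summed over the 10 genes, FPKM was 5387 in the WT and 2405 in the UUO library, 2.24-fold lower. The genes held 1.60% of the summed FPKM of all number-only genes in the WT and 0.886% in the UUO library. Haemoglobin genes held 0.950% of that sum in the WT and 32.6% in the UUO library. With haemoglobin left out the shares of the 10 genes were 1.61% and 1.32%.

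The other genes of the thioredoxin and glutaredoxin systems also lay on both sides. Of 14 that passed the FPKM minimum in either library 2 were higher and 5 lower, against 25.7% and 36.5% of all 9853 genes. Their median was -0.82. The balance turned, by the median ratio, to 5 higher and 2 lower, with a median of 0.08. That of all genes turned the same way, to 4338 higher and 1587 lower of 10657. Glrx, cytosolic glutaredoxin, was 8.06-fold higher in UUO urine, at 22.5 in the WT and 182 in the UUO library. Prdx4, the peroxiredoxin of the endoplasmic reticulum, was listed at 0 in the WT and at 4.44 in the UUO library. Txnip, which binds and inhibits thioredoxin, was 58.8 in the WT and 107 in the UUO library, a difference of 0.85. On the lower side were the reductase Txnrd3, at 7.11 in the WT and 0.956 in the UUO library, the thioredoxin-like Txnl1, at 139 and 34.9, and Txndc12, at 19.9 and 5.64.

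Among 10 regulators of the NRF2 pathway 2 were higher and 3 lower, against 25.7% and 36.5% of all 9853 genes. Their median was 0.15. Rescaled by the median ratio, 5 were higher and 0 lower, with a median of 1.03. All genes on that scale had 4338 higher and 1587 lower of 10657, with a median of 0.51. Over the 9 regulators with an FPKM of at least 1 in both libraries the median was -0.31 as deposited. Summed over the listed locus 4 regulators were higher and 1 lower, with a median of 0.24, and no count over all genes is given for such sums. Nfe2l2, which encodes NRF2, had an FPKM of 31.0 in the WT and 49.8 in the UUO library, a difference of 0.67. Keap1, its inhibitor, was 47.2 in the WT and 13.0 in the UUO library, 3.63-fold lower. The ratio of Keap1 to Nfe2l2 messages was therefore 1.52 in the WT and 0.261 in the UUO library. Of the small MAF partners, Mafg was 16.1 in the WT and 42.2 in the UUO library and Maff 8.55 and 17.3. Bach1, a repressor at the same elements, was 3.80 in the WT and 6.39 in the UUO library. Nfe2l1, a relative of NRF2, was 51.3 and 15.6. Sqstm1, the autophagy receptor that can sequester KEAP1, was 916 in the WT and 429 in the UUO library. Rbx1, a subunit of the ligase that KEAP1 serves, was listed at 0 in the WT and at 24.7 in the UUO library.

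The other NRF2 targets spanned a wide range in both directions. Of 28 on the list 26 were found and 23 passed the FPKM minimum. Of these 5 were higher and 8 lower, against 25.7% and 36.5% of all 9853 genes. Their median was -0.70. By the median ratio 8 targets were higher and 4 lower, with a median of 0.28. On that scale 4338 of all 10657 passing genes were higher and 1587 lower. Summed over the listed locus 9 targets were higher and 9 lower. Such sums add other entries of the locus, and no count over all genes is given beside them. Hmox1, inducible haem oxygenase, was listed at 0 in the WT and at 158 in the UUO library. The ferritin light chain Ftl1 was 1.73 in the WT and 13.8 in the UUO library, and the aldo-keto reductase Akr1b8 was listed at 0 and at 4.50. In the other direction, carbonyl reductase Cbr3 was 670 in the WT and 18.4 in the UUO library, 36.4-fold lower. The glutathione transferase Gstm1 was 270 in the WT and 50.5 in the UUO library, and the aflatoxin aldehyde reductase Akr7a3 was 621 and 132. Gsr, glutathione reductase, was 230 in the WT and 99.7 in the UUO library. The antioxidant response core stood in the promoter windows of 6 of the 22 genes of this list that had one, and in 13.1% of all 27457 genes. Whether the core goes with the direction of a gene was not tested.

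Compared with other stress and housekeeping sets, the 10 genes lay on both sides of the limit. Their share of higher members (30%) was near the 25.7% of the 9853 genes. Of the 7218 genes that passed the minimum in both libraries, as all 10 members did, 7.01% were higher. That contrast rests on 3 members and on the deposited scale, and this background was not computed on the other scales. Their share of lower members (40%) was near both backgrounds, at 36.5% and 42.8%. Of 17 heat shock protein genes that passed the minimum 1 was higher (Dnajb1) and 8 were lower, with a median of -0.96. Of 31 proteasome subunit genes 0 were higher and 21 lower, with a median of -1.23. By the median ratio the counts were 4 higher and 1 lower for the 10 genes, 3 and 4 for the heat shock genes and 3 and 8 for the proteasome. On that scale 4338 of all 10657 passing genes were higher and 1587 lower. Dnaja1, a co-chaperone, was 443 in the WT and 48.2 in the UUO library, and the proteasome ATPase Psmc5 was 136 and 16.9. With 1 library per group the difference between the sets was not tested.

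**Figure D4:**
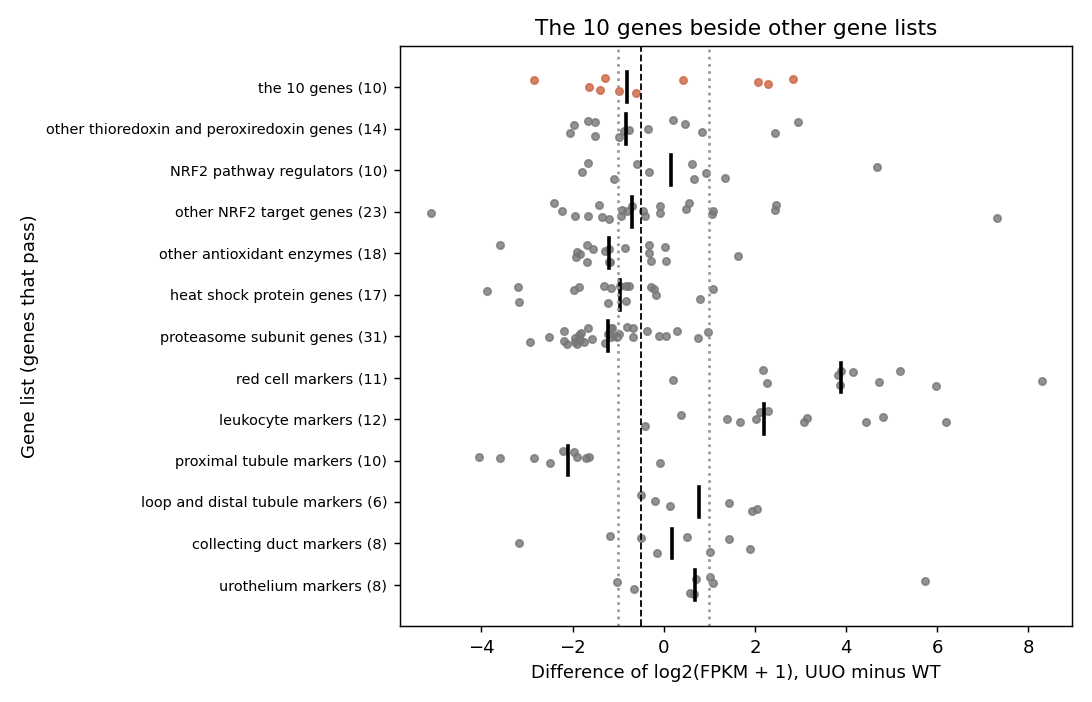
Log2 difference, UUO minus WT, of each gene that passed the FPKM minimum, by gene list, with the list median as a black bar and the median of all genes as a dashed line. The 10 genes (orange) spread from -2.85 to 2.83, the red cell and leukocyte lists lie mostly to the right and the proximal tubule list to the left.

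Cell type markers differed between the libraries along with these genes, and in bulk RNA fewer cells of a type cannot be told apart from less RNA per cell. As a background to the marker counts below, 25.7% of all 9853 passing genes were higher and 36.5% lower. Of 11 red cell markers 10 were higher and 0 lower in UUO urine, and their summed FPKM was 3224 in the WT and 89032 in the UUO library. Alas2, the first enzyme of haem synthesis in red cells, was 0.317 in the WT and 414 in the UUO library. Of 12 leukocyte markers 10 were higher, with a summed FPKM of 15.6 in the WT and 182 in the UUO library. Of these 10, 9 were listed at 0 in WT urine, S100a8 and S100a9 included, as were 75.1% of all higher genes. Of the 3 leukocyte markers with an FPKM of at least 1 in both libraries 1 was higher, with a median of 0.39. Of 10 proximal tubule markers 9 were lower, with a summed FPKM of 1214 in the WT and 322 in the UUO library. Slc13a3, a dicarboxylate transporter of the proximal tubule, was 30.9-fold lower, at 33.4 in the WT and 1.08 in the UUO library. The UUO value is close to the FPKM minimum of 1, so this fold is uncertain.

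As deposited, markers of the other cell types of the urinary tract gave smaller fold differences in summed level. Urothelium was 1.60-fold higher, where proximal tubule was 3.76-fold lower, and this order depends on the scale. Of 6 loop and distal tubule markers that passed the minimum 3 were higher and 0 lower, with a summed FPKM of 68.7 in the WT and 91.1 in the UUO library. Of 8 collecting duct markers 3 were higher and 2 lower, at 174 and 185 summed. Of 8 urothelium markers 3 were higher and 1 lower, at 1531 and 2443 summed, and under each of the 4 rescalings 6 were higher and 0 lower. Under these rescalings the share of higher genes among all changed genes was between 62.7% and 73.2%. Urothelial messages such as Upk3a, at 312 in the WT and 466 in the UUO library, and Krt19, at 357 and 752, were well detected in both. Upk1b, at 216 in the WT and 136 in the UUO library, and Krt20, at 26.4 and 12.5, had lower values in UUO urine. Krt5 was listed at 0 in the WT and at 51.8 in the UUO library. The part of these cell types in the levels of the 10 genes was not tested.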

How the data were processed

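RNA of rat urine was measured by sequencing in 1 WT (sham-operated) and 1 UUO library. The authors removed ribosomal RNA, aligned read pairs to the rn5 build with TopHat2 2.0.9 and Bowtie2 2.0.6 and assembled transcripts with Cufflinks 2.1.1, and the deposited table of FPKM values per gene has the layout of Cuffdiff 2.1.1. For urine RNA the methods describe a column kit and the labels Trizol. The fragment total behind the FPKM scaling is not stated. The columns of the authors' own fold changes, p-values and q-values were not used. Both FPKM columns were read as UUO (UrRf) and WT (Urc), which the names alone do not settle. Cuffdiff divides reads among overlapping entries, so the FPKM of shared loci and of gene copies is uncertain, and an FPKM of 0 can be a failed estimate.

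Symbols came from the RefSeq table of GRCr8, which matched 16329 of 16484 number-only IDs (99.1%), and no coordinate of it was used for the table's loci. Differences were computed as log2(FPKM + 1), which understates low genes, and counted at 1 or more among genes with an FPKM of at least 1 in either library. Python 3.11.15 with pandas 2.3.3 and numpy 2.4.6 was used, tested on simulated data. Depth was approached by fitting whole fragments to the FPKM of assembled features that share their locus with no other entry and span 400 to 1200 bp, with totals of 500000 to 4000000. Of values under 40 fragments, 99.3% of 138 in WT and 99.7% of 3496 in UUO urine came within 0.1 of a whole number. These totals need not be the numbers of sequenced fragments.

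With 1 library per group no test was made. The members and lists were chosen with earlier results of these data known. Named were the 10 members, Nfe2l2, Keap1, Bach1, Txnip, Hmox1, Gsr and Sqstm1, and from each list genes among the 3 greatest and 3 lowest differences. Trmt112, Esrra, Nob1 and Nfat5 were named after their values were seen, because they share a locus with a member. The alternatives were other pseudocounts, filters, fold limits, rescalings and locus sums.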

Additional observations from a re-analysis of the deposited data

How the results depend on the processing

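No paired analysis was possible because WT and UUO have 1 library each. A log2 value was taken as kept when its sign and its side of 1 stayed, and a count when it stayed within 1.5 times. Of 541 values over 50 results and 12 alternatives, 367 were kept and 174 moved, and 0 called values changed sign. The number of higher genes was 3 or 4 under every alternative except the sum over the listed locus, which gave 2. The 4 lower ones became 2 after rescaling to equal sums, and 1 by the median ratio, the 75th percentile, equal sums without haemoglobin or a 4-fold limit. By the median ratio the medians were 0.12 for the 10 genes, 0.081 for other thioredoxin and peroxiredoxin genes, 1.03 for NRF2 regulators, 0.28 for other NRF2 targets, -0.28 for antioxidant enzymes, -0.32 for the proteasome, 1.68 for loop and distal tubule and 1.61 for urothelium, and the summed level of the 10 genes differed by -0.23 (log2; -1.16 as deposited). With equal sums without haemoglobin, chosen after seeing the data, they were 0.061, 0.0198, 0.97 for the regulators, 0.22, -0.34, -0.38, 1.62 and 1.55, and -0.29 for the sum. With equal sums of all features antioxidant enzymes stood at -0.58, the proteasome at -0.62, loop and distal tubule at 1.39, urothelium at 1.30 and the sum at -0.54. At the 75th percentile other NRF2 targets stood at 0.088, antioxidant enzymes at -0.48, the proteasome at -0.52, loop and distal tubule at 1.49, urothelium at 1.41 and the sum at -0.43. Each rescaling divides UUO values by 1 factor below 1, which moves such values upward.

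Filters and pseudocounts moved fewer medians. With FPKM of at least 1 in both libraries they were -0.31 for NRF2 regulators, 0.39 for leukocytes, -0.027 for loop and distal tubule and -0.15 for collecting duct, since genes listed at 0 drop out. At a minimum FPKM of 5 in either library they were -1.06 for heat shock, -0.027 for loop and distal tubule and -0.15 for collecting duct, and without a filter -0.068 for collecting duct. A pseudocount of 0.1 gave -1.10 for heat shock, and one of 10 gave 0.64 for leukocytes. Depth limits the lowest WT values, those of Prdx1 and Srxn1, most.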

Other observations

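The antioxidant enzymes outside the thioredoxin system had a negative median on every scale, with most of them 2-fold lower on the deposited scale only. Of 22 on the list 21 were found and 18 passed the FPKM minimum. Of these 1 was higher and 11 were lower, against 25.7% and 36.5% of all 9853 genes. The median was -1.19, against -0.51 over all genes. The number of lower enzymes became 6 with equal sums, 4 at the 75th percentile or without haemoglobin, and 1 by the median ratio. By that ratio 2 enzymes were higher and the median was -0.28. Of all 10657 passing genes on that scale 4338 were higher and 1587 lower, with a median of 0.51. Gpx3, the secreted glutathione peroxidase made by the proximal tubule, was 533 in the WT and 43.5 in the UUO library, 12.2-fold lower. Park7, a redox-sensitive chaperone, was 342 in the WT and 89.7 in the UUO library, and the methionine sulfoxide reductase Msrb1 was 421 and 112. The superoxide dismutases Sod1, at 336 in the WT and 344 in the UUO library, and Sod2, at 62.3 and 64.6, were nearly level as deposited. The p53-induced sestrin Sesn1 was the 1 higher gene as deposited, at 4.47 in the WT and 15.9 in the UUO library.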
